A study of Mus musculus with 29 samples.

Results

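The Fc receptor genes of the mouse were followed in 29 brain samples from mice that can and cannot make antibody. The members were the 7 genes named Fcgr1, Fcgr2b, Fcgr3, Fcgr4, Fcer1g, Fcrls and Fcgrt, taken from 25746 genes in the count files by their Ensembl identifiers. Each sample was a piece of brain from 1 mouse, about 3 months old and of either sex, and polyadenylated RNA was counted per gene. Stroked mice had a photothrombotic stroke of the right sensorimotor cortex and were sampled at 21 days post injury (dpi).

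The 8 groups were as follows. Wildtype (WT) mice were C57BL/6J, with 4 non-stroked and 4 stroked samples. Rag2-/- mice, which lack the recombinase needed for T cell and B cell receptors, gave 3 non-stroked and 3 stroked samples. NSG mice carry the scid allele of Prkdc and a null Il2rg on a NOD background, lack T, B and NK cells, and gave 4 non-stroked and 3 stroked samples. WT-Tacr mice were C57BL/6J mice under tacrolimus, a calcineurin inhibitor given by a subcutaneous pump, with 3 stroked samples from treatment begun on the day of stroke (acute) and 5 from treatment begun a week later (delayed). The sources describe the non-stroked tissue both as the contralesional side and as tissue of naive mice, so it is called non-stroked here. Strain background and immunodeficiency cannot be told apart in NSG mice, since no NOD controls were analysed here. The stroke comparisons of WT, acute and delayed mice share the same 4 non-stroked WT samples, and no non-stroked WT-Tacr sample entered the fit.

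Fc receptors on myeloid cells bind the constant part of antibody. Fcgr1, Fcgr3 and Fcgr4 are activating receptors for IgG that signal through the shared gamma chain Fcer1g, whereas Fcgr2b carries an inhibitory motif and opposes them. Fcgrt encodes the heavy chain of FcRn, which pairs with B2m to recycle IgG and albumin, and Fcrls is a microglial gene of the Fc receptor-like family with no established ligand. In the brain, microglia and macrophages are the main cells that carry the genes other than Fcgrt.

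The titles place 20 samples in a cohort called Imm2 and 9 in a cohort called TF. Total counts ran from 32507506 to 43403413 in Imm2 and from 17789044 to 29928311 in TF. All non-stroked, Rag2-/- and NSG samples were Imm2, all delayed samples were TF, and stroked WT (2 and 2) and acute WT-Tacr (1 and 2) samples came from both. Titles of stroked Imm2 samples carry an m in WT and acute mice and either f or m in Rag2-/- and NSG mice. If these letters mark sex, it was not balanced between the stroked genotypes. Titles of the other samples carry no such letter. Rag2 itself had 0 to 2 counts in WT samples and 0 counts elsewhere, too few to check the genotype. Il2rg had 22 to 37 counts in NSG and 26 to 152 in WT samples, and Prkdc, where scid is a point change, ranged widely in all genotypes. In these tissue pieces, fewer cells of a type and less RNA per cell cannot be told apart. The labels do not say that replicates were handled separately after collection, and p-values measure only the spread between these samples.

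Some antibody transcripts followed the genotype after stroke, and others did not. Igkc, the constant part of the kappa light chain, had 5, 2, 5 and 8 counts in the 4 non-stroked WT samples. After stroke it had 38, 158, 24 and 41 counts in WT samples. In Rag2-/- mice it had 0, 3 and 3 counts without and 2, 1 and 3 counts with stroke. All 7 NSG samples had 0 counts, which allows at most 0.0741 to 0.0928 CPM (counts per mega-read, with libraries scaled by TMM) in each library, counting error only. No stroked WT sample therefore overlapped with a Rag2-/- or NSG sample. Under tacrolimus the Igkc counts were 56, 0 and 39 in acute and 210, 165, 80, 101 and 548 in delayed samples, so that 1 acute sample, replicate 2, lay with the antibody-deficient mice. Igha, the IgA heavy chain, had 27, 95, 12 and 59 counts in stroked WT mice, 0 in all 6 Rag2-/- samples and 1 in 1 of 7 NSG samples. Ighm was different, with 626 to 2085 counts in NSG, 1432 to 1759 in Rag2-/- and 622 to 2203 in stroked WT samples. Ighg2c, an IgG heavy chain, had 38 to 151 counts in NSG, 59 to 149 in Rag2-/- and 64 to 185 in stroked WT samples, and Ighd had 11 to 20, 7 to 23 and 7 to 19 counts. Ighg2b had 2, 3 and 2 counts summed over the same samples. These 4 heavy chains, 2 of them chains of IgG, therefore overlapped between mice with and without antibody. Igkc and Igha were chosen for description after their values were seen.

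The activating receptor Fcgr4 went from nearly undetected to clearly counted after stroke in all 3 genotypes. Its counts were 0, 1, 3 and 2 in non-stroked WT and 73, 68, 68 and 124 in stroked WT samples. In Rag2-/- mice they were 3, 2 and 3 without and 78, 54 and 52 with stroke. In NSG mice they were 2, 1, 5 and 2 without and 35, 85 and 35 with stroke. Every stroked sample without tacrolimus was above every non-stroked sample, and the stroked genotypes overlapped with each other. The ratio of summed CPM was 61.7 in WT mice (exact counting interval 28.0 to 169), 22.1 in Rag2-/- mice (11.0 to 52.0) and 19.4 in NSG mice (10.3 to 41.3). These intervals overlap, cover counting error only and rest on 6, 8 and 10 counts in the non-stroked groups.

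**Figure D1:**
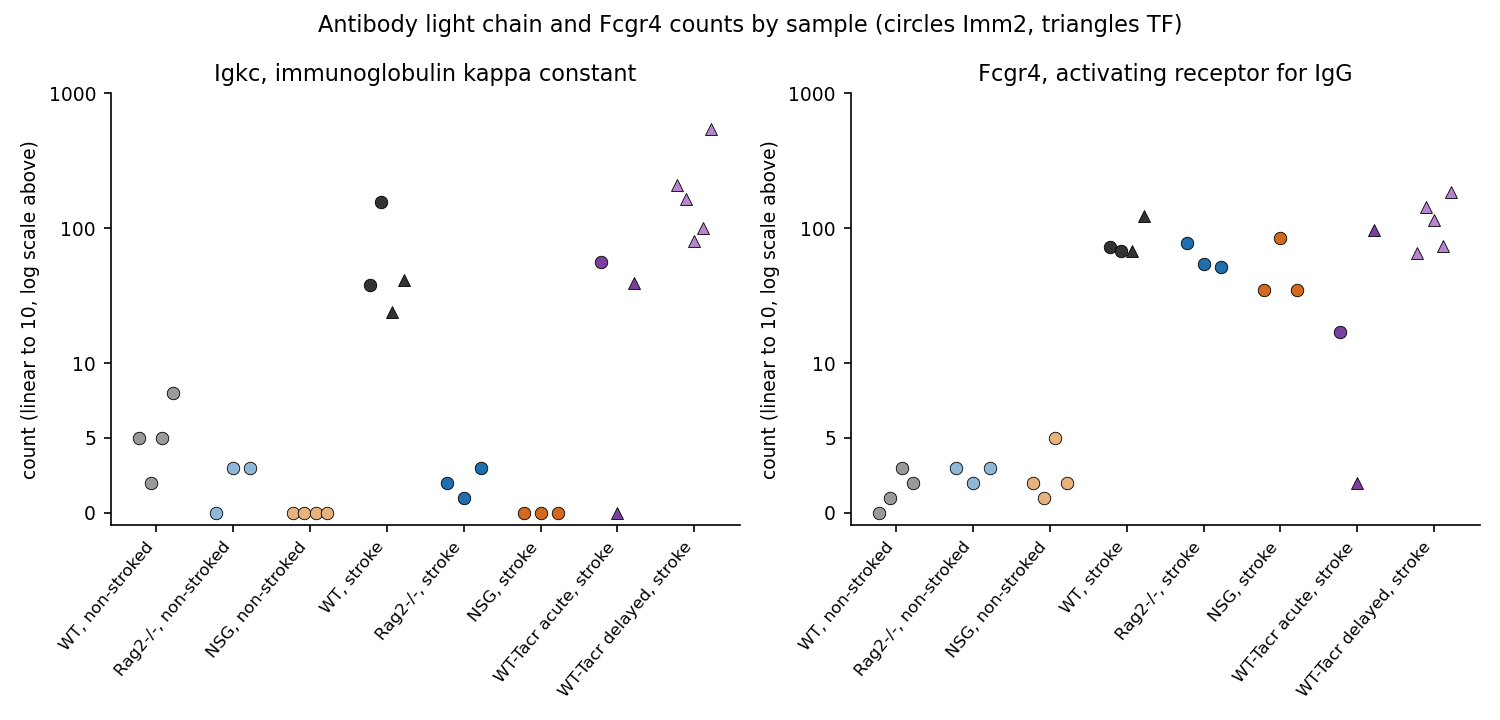
Counts of Igkc (left) and Fcgr4 (right) in each of 29 samples, by group. The vertical axis is linear up to 10 counts and logarithmic above, each point is 1 sample, circles are Imm2 and triangles TF samples. Igkc stayed at 3 counts or fewer in Rag2-/- and NSG mice, while Fcgr4 reached 35 to 85 counts in the same stroked mice.

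All 7 members passed the filter on low counts (Fcgr4 through its stroked samples) and entered 1 edgeR quasi-likelihood fit of 17031 genes, with p-values adjusted over all of them by Benjamini-Hochberg and a call at an adjusted p below 0.05. In stroked against non-stroked WT mice all 7 of 7 members were called higher, where 15.2% of all genes were called higher and 11.6% lower. In Rag2-/- mice all 7 were called higher, against 6.71% of all genes. In NSG mice all 7 were called higher, against 13% of all genes. The median log2 fold change of the members was 1.92 in WT mice, 2.02 in Rag2-/- mice and 1.92 in NSG mice, where the medians of all genes were 0.00, 0.00 and 0.03. In each genotype every stroked sample lay above every non-stroked sample for all 7 members, which held for 16.3% of all genes tested in WT mice, 18.8% in Rag2-/- mice and 13.6% in NSG mice. Because Fcgr4 passed the filter through its stroked samples, its part in these counts adds no support. The same holds for later counts of members called between stroked and non-stroked mice. All other members were called and separated in each genotype.

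Fcgr3, the low-affinity activating receptor, was the most abundant of the IgG receptors per kilobase of exon. It had 8.23, 6.15, 8.62 and 10.6 CPM in non-stroked and 32.1, 33.7, 39.3 and 37.7 CPM in stroked WT samples. In stroked Rag2-/- samples it had 38.8, 29.3 and 33.0 CPM, and in stroked NSG samples 22.0, 37.1 and 21.1 CPM. WT and Rag2-/- samples lay in 1 range, and 2 of 3 NSG samples lay below it. The log2 fold change with stroke was 2.09 ± 0.264 (SE) in WT mice, 2.02 ± 0.306 in Rag2-/- mice and 1.92 ± 0.278 in NSG mice, with adjusted p = 1.68e-05, 0.000288 and 7.92e-05.

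Fcgr1, the high-affinity receptor, had 1.79 to 2.31 CPM in non-stroked WT, 2.04 to 2.64 in Rag2-/- and 2.84 to 3.34 in NSG samples. With stroke it had 6.54, 5.03, 7.74 and 8.34 CPM in WT samples. Stroked Rag2-/- samples had 7.72, 5.21 and 6.59 CPM, and stroked NSG samples had 11.3, 10.8 and 8.48 CPM. NSG samples were the highest of the 3 genotypes in both conditions, without overlap with WT or Rag2-/- samples. For these comparisons the share of all genes without overlap was not computed. The log2 fold change with stroke was 1.77 ± 0.246 in WT mice, 1.53 ± 0.283 in Rag2-/- mice and 1.72 ± 0.252 in NSG mice (adjusted p = 3.41e-05, 0.00151 and 8.58e-05).

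Fcgr2b, the inhibitory receptor, had 2.22, 2.61, 3.02 and 3.0 CPM in non-stroked and 13.8, 15.6, 24.1 and 22.2 CPM in stroked WT samples. In stroked Rag2-/- samples it had 21.1, 15.9 and 17.7 CPM. In stroked NSG samples it had 8.58, 23.1 and 7.50 CPM, so that 1 NSG sample lay with the WT samples and the others below all of them. The log2 fold change with stroke was 2.80 ± 0.387 in WT mice, 2.51 ± 0.442 in Rag2-/- mice and 2.17 ± 0.399 in NSG mice (adjusted p = 3.33e-05, 0.00109 and 0.000634). That NSG sample, replicate 2, was also the highest NSG sample for Fcgr3, Fcgr4, Fcer1g, Fcrls and Fcgrt. Without it the log2 fold changes in NSG mice were smaller for each member, and all 7 stayed called.

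Fcer1g, the gamma chain that the activating receptors need for signalling and surface display, had 6.72, 5.74, 6.52 and 6.35 CPM in non-stroked and 25.0, 24.6, 20.2 and 26.3 CPM in stroked WT samples. Non-stroked NSG samples had 3.69, 4.04, 4.25 and 4.05 CPM, all below the WT and Rag2-/- samples. For these comparisons the share of all genes without overlap was not computed. Stroked samples had 32.8, 28.4 and 27.7 CPM in Rag2-/- and 18.0, 28.4 and 17.0 CPM in NSG mice. The log2 fold change was 1.92 ± 0.289 in WT mice, 2.14 ± 0.335 in Rag2-/- mice and 2.40 ± 0.311 in NSG mice (adjusted p = 6.03e-05, 0.000389 and 2.23e-05).

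Fcgrt, the FcRn heavy chain, showed the smallest change of the 7 in all 3 genotypes. It had 8.31, 10.3, 9.55 and 10.3 CPM in non-stroked and 14.5, 18.3, 28.5 and 27.8 CPM in stroked WT samples. Stroked Rag2-/- samples had 20.2, 15.8 and 18.6 CPM, and stroked NSG samples 20.5, 24.1 and 15.9 CPM. The genotypes overlapped in both conditions. The log2 fold change was 1.21 ± 0.225 in WT mice, 0.83 ± 0.259 in Rag2-/- mice and 1.01 ± 0.238 in NSG mice (adjusted p = 0.000429, 0.0467 and 0.00428). B2m, its partner chain, was called higher in all 3 genotypes, by 1.14 (log2) in WT mice, 1.26 in Rag2-/- mice and 1.72 in NSG mice. The Rag2-/- call for Fcgrt was lost in 7 of 15 alternative settings, and that for Fcrls in 3 of 15. The NSG call for Fcgrt was lost in 1 of 16, with Ddx3y, a Y chromosome gene that stands in for sex, as a covariate (adjusted p = 0.0503). The count of members called in Rag2-/- mice fell to 5 when non-stroked replicate 1, non-stroked replicate 4 or stroked replicate 1 was left out. The numbers of all genes called in those fits are not set beside it. Choroid plexus markers varied between samples, with summed levels of 9.71 to 815 CPM in non-stroked WT and 12.4 to 254 in stroked WT samples. In Rag2-/- samples they were 7.59 to 12.2 CPM without and 9.31 to 1584 CPM with stroke. In NSG samples they were 16.6 to 1186.5 and 22.0 to 423 CPM. Acute WT-Tacr samples had 4.54 to 18.9 CPM and delayed samples 12.5 to 855 CPM (medians 8.67 and 813). The part of these markers in the Fcgrt values was not tested.

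Fcrls had 18.0, 16.7, 19.0 and 16.5 CPM in non-stroked and 36.2, 37.6, 74.4 and 62.6 CPM in stroked WT samples. In stroked Rag2-/- samples it had 53.6, 31.0 and 40.1 CPM. In NSG samples it had 5.94, 7.92, 7.17 and 7.18 CPM without and 18.6, 21.1 and 13 CPM with stroke. Stroked NSG samples thus overlapped with the non-stroked samples of the other genotypes. The log2 fold change with stroke was 1.58 ± 0.240 in WT mice, 1.06 ± 0.274 in Rag2-/- mice and 1.32 ± 0.262 in NSG mice (adjusted p = 6.51e-05, 0.0163 and 0.00118).

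The cohort moved with some of these values. The 2 stroked WT samples of TF had higher Fcrls (mean 68.5 against 36.9 CPM), Fcgrt (28.1 against 16.4 CPM) and Fcgr2b (23.2 against 14.7 CPM) than the 2 of Imm2, whereas Fcer1g was similar (23.2 against 24.8 CPM). With only Imm2 samples all 7 members stayed called in WT mice, with log2 fold changes of 1.08 for Fcrls, 0.78 for Fcgrt, 2.44 for Fcgr2b and 5.40 for Fcgr4.

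**Figure D2:**
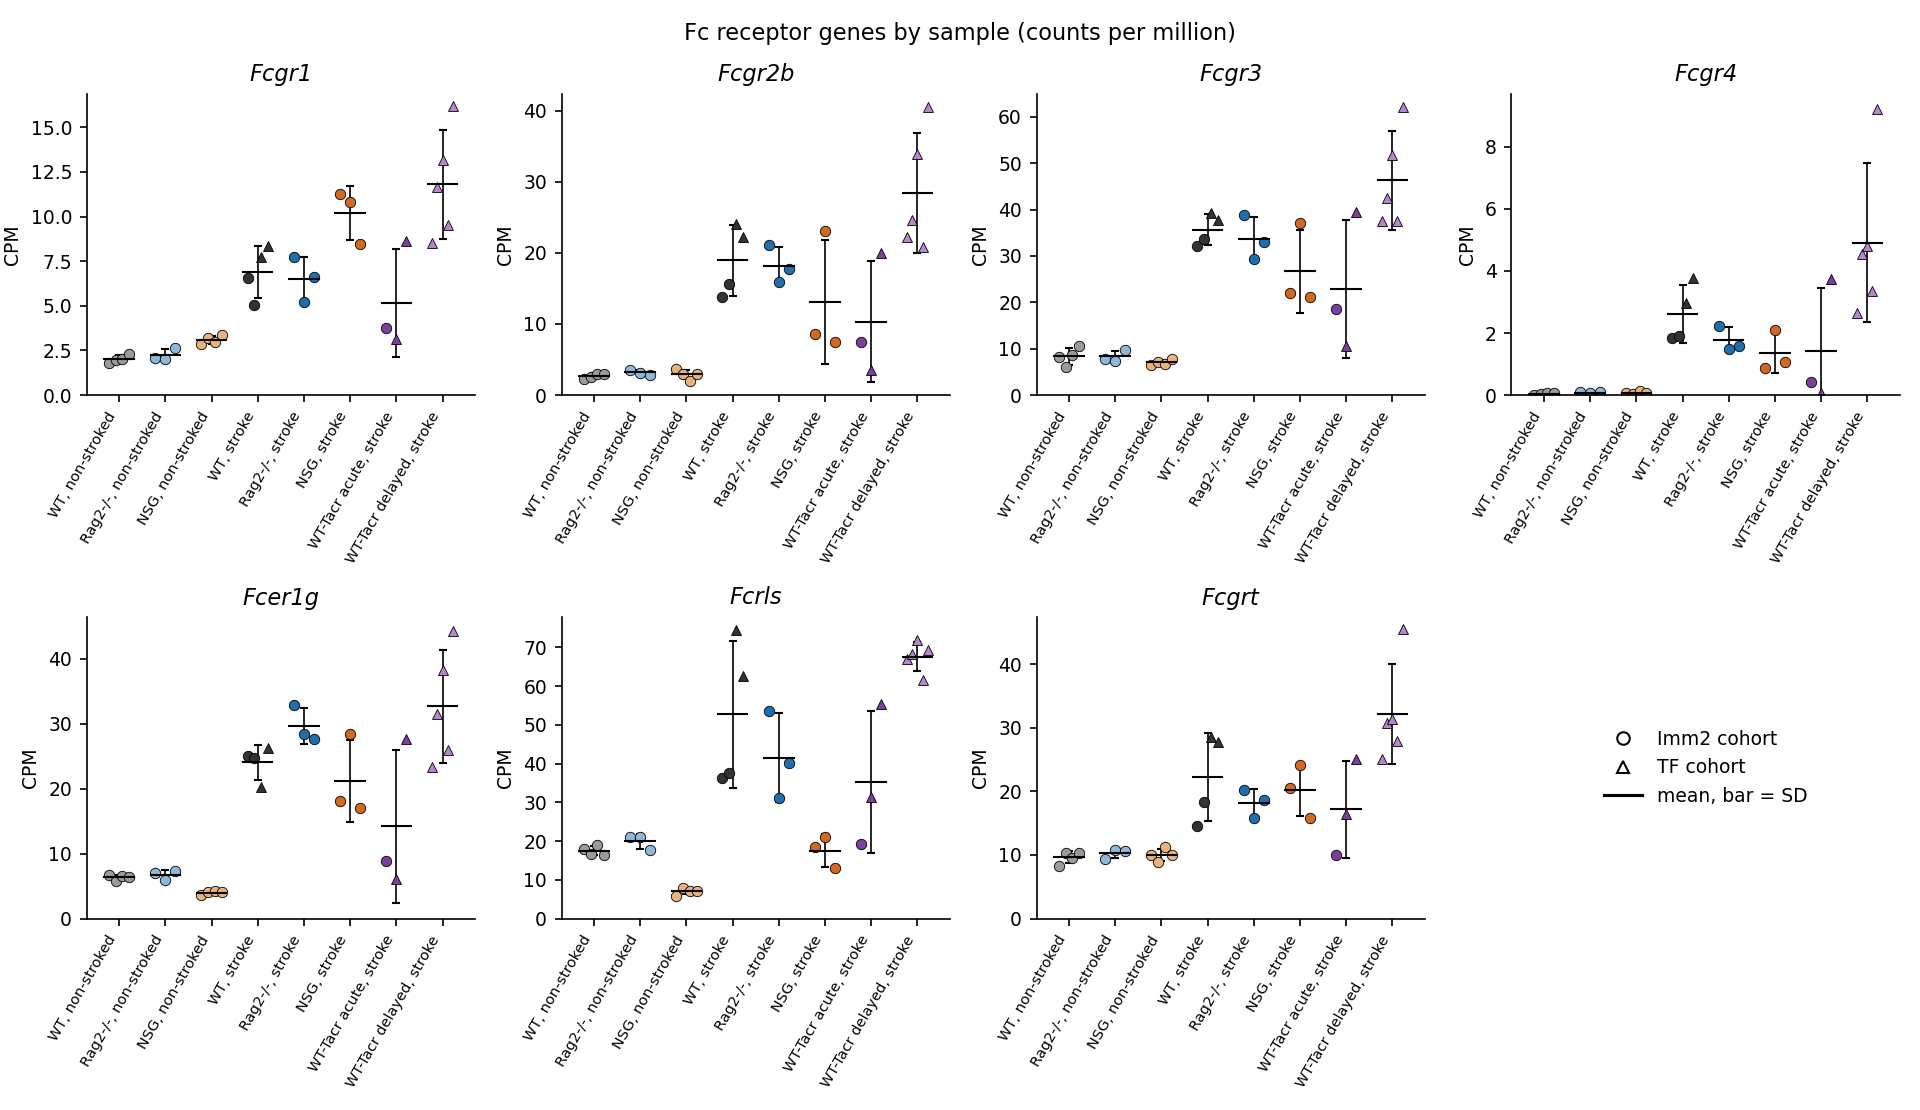
CPM of the 7 Fc receptor genes in each of 29 samples, by group. Points are samples (circles Imm2, triangles TF), the horizontal line is the group mean and the bar its SD, and each panel has its own linear axis from 0. Stroked WT, Rag2-/- and NSG samples sit above the non-stroked samples of their genotype in every panel, and Fcrls is lowest in NSG mice in both conditions.

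**Figure D3:**
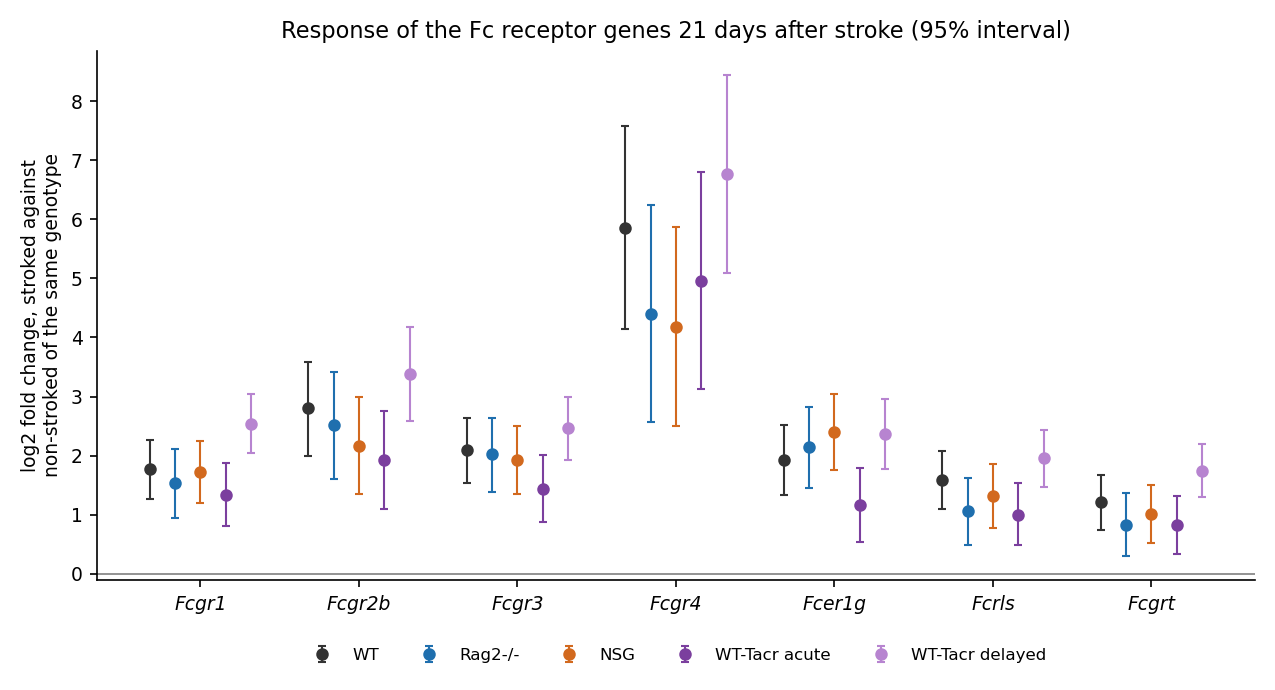
Log2 fold change of each member in stroked against non-stroked samples for WT, Rag2-/-, NSG, acute and delayed WT-Tacr mice. Points are edgeR estimates and bars 95% intervals. All lie above 0, Fcgr4 has the highest estimate (5.86 in WT, 4.40 in Rag2-/-, 4.18 in NSG mice) and the widest interval, and the 3 genotypes overlap for every member.

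Whether the response to stroke differed between mice with and without antibody was tested as a difference of differences. For Rag2-/- minus WT mice, 0 of 7 members were called by edgeR, 0 had an unadjusted p below 0.05 and 0 were called by DESeq2, and 0% of all genes were called. The difference ran from -0.52 for Fcrls (95% interval -1.27 to 0.22) to 0.22 for Fcer1g (-0.67 to 1.10) on the log2 scale, leaving out Fcgr4. The stroked WT samples come from both cohorts and all Rag2-/- and NSG samples from Imm2, and with only Imm2 samples these differences lay between -0.01 (Fcrls) and 0.18 (Fcer1g), with those of Fcgr1, Fcgr2b, Fcgr3 and Fcgrt turning positive. For NSG minus WT mice, again 0 of 7 were called, 0 had an unadjusted p below 0.05 and 0 were called by DESeq2, where 0.0294% of all genes were called. Here it ran from -0.63 for Fcgr2b (-1.76 to 0.50) to 0.47 for Fcer1g (-0.39 to 1.33). With only Imm2 samples it ran from -0.28 for Fcgr2b to 0.42 for Fcer1g, and the estimates for Fcgr1, Fcrls and Fcgrt turned positive. For NSG minus Rag2-/- mice, 0 of 7 were called by edgeR, 0 at an unadjusted p below 0.05 and 0 by DESeq2, and 0% of all genes. The estimates for Fcgr4, -1.46 (-4.51 to 1.59) and -1.68 (-4.61 to 1.25) against WT, depend on the few non-stroked counts. Intervals this wide leave room for sizeable differences, so the lack of calls does not show equal responses.

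The genotypes were then compared directly. In non-stroked Rag2-/- against WT mice 0 of 7 members were called by edgeR, 0 had an unadjusted p below 0.05 and 0 were called by DESeq2, and 0.00587% of all genes were called. Fold changes other than that of Fcgr4 lay between -0.01 for Fcgr3 and 0.23 for Fcgr2b on the log2 scale. In stroked Rag2-/- against WT mice 0 of 7 were called by edgeR, 0 at an unadjusted p below 0.05 and 0 by DESeq2, again against 0.00587% of all genes. There the estimates ran from -0.55 for Fcgr4 (95% interval -1.77 to 0.66) to 0.30 for Fcer1g (-0.30 to 0.91). With only Imm2 samples the estimate for Fcgr4 was -0.06 and the other 6 lay between 0.05 and 0.32, so that the direction turned for Fcgr1, Fcgr2b, Fcgr3, Fcrls and Fcgrt. Fcer1g was the member whose stroked Rag2-/- samples did not overlap with the WT samples, at 27.7 CPM or more against 26.3 CPM or less, with adjusted p = 0.797. How many of all genes separated in this way was not counted.

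Fcrls was the 1 member called between NSG and the other genotypes. In non-stroked NSG against WT mice it was lower by a log2 fold change of -1.31 ± 0.248 (adjusted p = 0.000643, 7.05 ± 0.822 against 17.6 ± 1.19 CPM, SD, n = 4 and 4), 1 of 7 members where 4.92% of all genes were called lower. Against non-stroked Rag2-/- mice it was -1.50 ± 0.262 (adjusted p = 0.000340), 1 of 7 where 3.26% of all genes were called lower. After stroke it was -1.58 ± 0.265 against WT (adjusted p = 0.000195, 17.6 ± 4.16 against 52.7 ± 18.9 CPM, n = 3 and 4), 1 of 7 where 6.27% of all genes were called lower. Against stroked Rag2-/- mice it was -1.24 ± 0.275 (adjusted p = 0.00464), 1 of 7 where 4.24% of all genes were called lower, and with only these groups in the fit its adjusted p was 0.0572. No NSG sample overlapped with a WT or Rag2-/- sample of the same condition, although the share of all genes without overlap was not computed for these comparisons. Within Imm2 alone the stroked difference from WT was -1.08, with adjusted p = 0.00226. One call of 7 is not far from the background, and Fcrls is described here as a single gene.

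**Figure D4:**
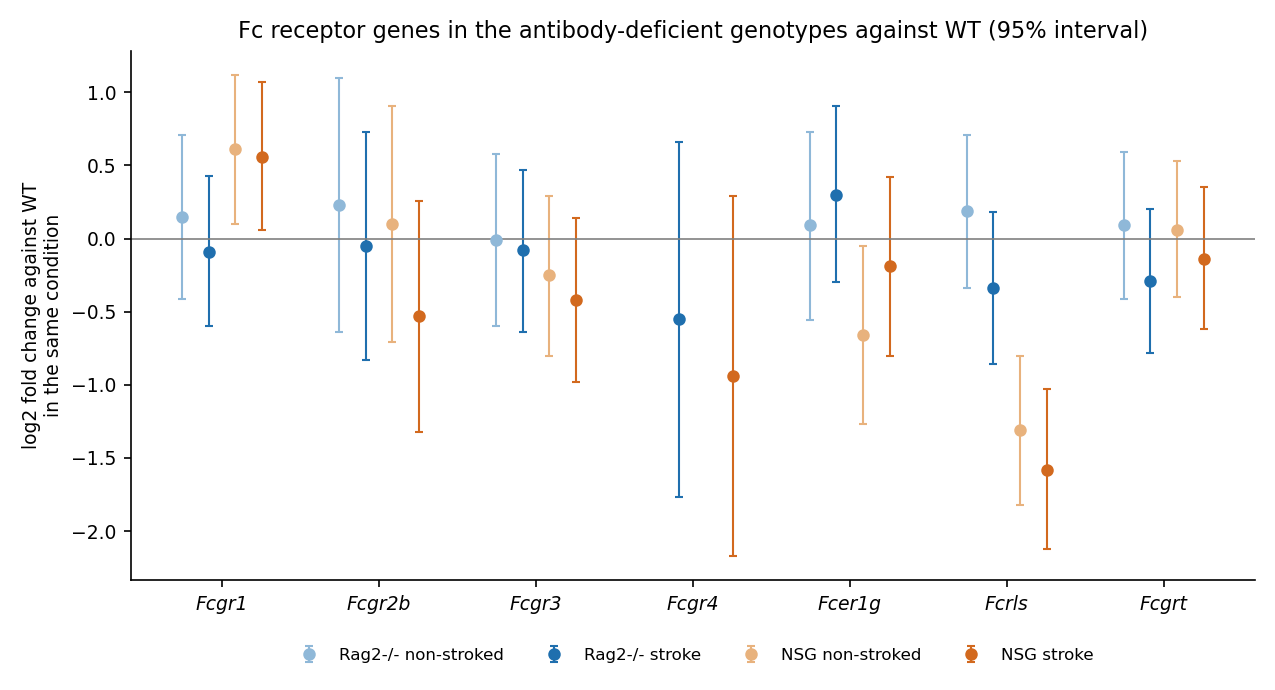
Log2 fold change of each member in Rag2-/- and NSG against WT mice, without and with stroke. Points are edgeR estimates and bars 95% intervals, and Fcgr4 is left out for non-stroked mice because its counts were 5 or fewer. Fcrls in NSG mice lies at -1.31 and -1.58, and the Rag2-/- intervals all cross 0.

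Fcrls was also set against markers of microglia and macrophages. Over the summed CPM of 7 microglia and macrophage markers (Aif1, Csf1r, Itgam, Ptprc, Cd68, Laptm5 and Spi1), Fcrls was 0.113 ± 0.00405 in non-stroked WT and 0.0393 ± 0.00441 in non-stroked NSG samples. After stroke the ratio was 0.135 ± 0.0346 in WT and 0.0491 ± 0.0116 in NSG samples. The marker sum itself was 143 to 167 CPM in non-stroked WT and 170 to 190 CPM in non-stroked NSG samples. Of 8 microglial markers, 2 were called higher and 0 lower by edgeR in non-stroked NSG against WT mice, P2ry12 (0.59) and Tmem119 (0.44). After stroke 1 was called higher (P2ry12, 0.46) and 1 lower (Siglech, -0.43). Fcrls lies at chr3:87250758-87263738 on the minus strand (GRCm38). Within 200 kb, Fcrl1, another Fc receptor-like gene 112649 bases away and known from B cells, was also called lower in NSG mice, without (adjusted p = 0.000547) and with stroke (adjusted p = 7.62e-05). It had a mean of only 0.349 CPM in non-stroked WT and 0.0434 CPM in non-stroked NSG mice, too few counts for a fold. Fcrl1 was 1 of 3 neighbours tested. Cd5l, 94143 bases away, was called lower in NSG against WT mice only with stroke (-3.33, adjusted p = 0.0333 by edgeR). Kirrel, 76011 bases away, was called in neither condition. In Rag2-/- mice, which also lack B cells, Fcrl1 had 10, 8 and 16 counts without and 27, 47 and 41 with stroke. These overlapped with WT samples in both conditions, and the cause of the NSG difference was not tested.

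Fcgr1 and Fcer1g also differed from WT in NSG mice without passing the threshold. Fcgr1 had a log2 fold change of 0.61 ± 0.247 without stroke (adjusted p = 0.129) and 0.56 ± 0.247 with stroke (adjusted p = 0.131), and Fcer1g of -0.66 ± 0.297 without stroke (adjusted p = 0.178), each with samples that did not overlap. The share of all genes without overlap was not computed for these comparisons, so the lack of overlap adds no support. In a fit of Imm2 samples alone the first and the last passed it, with adjusted p = 0.0147 for Fcgr1 and 0.00665 for Fcer1g in non-stroked mice, as did Fcgr1 after stroke (0.81, adjusted p = 0.0167). Next to Fcer1g, 3193 bases away, Apoa2 had 0 CPM in non-stroked NSG and 0.403 CPM in non-stroked WT mice.

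The mix of receptors was described per kilobase of exon, as each gene's share of the sum of Fcgr1, Fcgr2b, Fcgr3 and Fcgr4. The length covers all annotated exons of a gene, 5.79 kb for Fcgr2b and 1.736 kb for Fcgr3, and not the transcript expressed. Levels are therefore only roughly comparable between genes. In non-stroked WT mice Fcgr3 made up 78.7% ± 3.34 (SD, n = 4), Fcgr1 13% ± 2.03, Fcgr2b 7.78% ± 1.32 and Fcgr4 0.508% ± 0.412. In stroked WT mice Fcgr3 made up 72.3% ± 3.51, Fcgr2b 11.3% ± 1.50, Fcgr1 9.30% ± 1.20 and Fcgr4 7.15% ± 1.70. Per kilobase, Fcgr2b was thus below Fcgr1 in non-stroked and above it in stroked WT mice, an order that rests on the division by exon length. Stroked Rag2-/- mice had nearly the same mix, with 73.4% ± 0.643 Fcgr3, 11.9% ± 0.109 Fcgr2b, 9.45% ± 0.550 Fcgr1 and 5.31% ± 0.452 Fcgr4 (n = 3). In NSG mice Fcgr1 held a higher share, 20.5% ± 0.532 without (n = 4) and 18.2% ± 4.64 with stroke (n = 3), and its mean stayed above that of Fcgr2b, which held 8.65% ± 2.01 and 9.29% ± 3.04. The lowest Fcgr1 share was 19.8% in non-stroked NSG and the highest 16.0% in non-stroked WT samples. These shares were not tested, and without division by exon length Fcgr2b (20.8%) was above Fcgr1 (15.6%) in non-stroked WT mice already, and in stroked WT mice they held 29.1% and 10.8%.

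**Figure D5:**
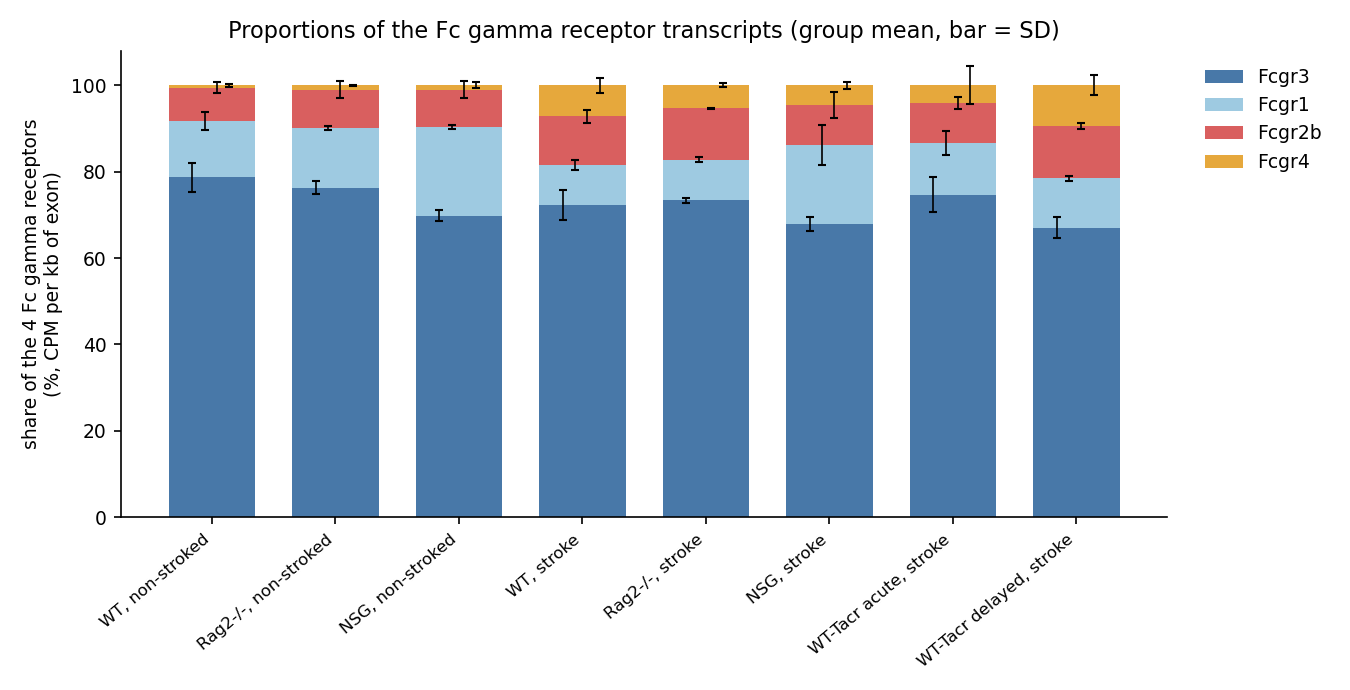
Mean share of Fcgr3, Fcgr1, Fcgr2b and Fcgr4 in their sum per kilobase of exon, in percent, for the 8 groups. Each black bar is the SD of the share, drawn at the top of its segment. Fcgr4 takes 7.15% in stroked and 0.508% in non-stroked WT mice, and the Fcgr1 segment is largest in NSG mice, at 20.5% and 18.2%.

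The summed activating receptors (Fcgr1, Fcgr3 and Fcgr4) over Fcgr2b, per kilobase, were 12.1 ± 2.14 in non-stroked and 7.97 ± 1.21 in stroked WT mice. This ratio depends on the exon lengths used and was not tested. In Rag2-/- mice the mean ratio was 10.6 without and 7.41 with stroke, and in NSG mice 11.0 and 10.5. The stroked NSG samples were not alike. In replicates 1 and 3 the Fcgr2b share lay below that of every stroked WT sample, and in replicate 2 within the stroked WT range. The ratio of replicate 2 therefore also lay within the stroked WT range, and the mean of 10.5 does not describe every stroked NSG sample. Over the summed microglia and macrophage markers, which were 340 to 432 CPM in stroked WT samples, the members did not move alike. From non-stroked to stroked WT mice, Fcgr4 went from 0.000256 to 0.00672, Fcgr2b from 0.0175 to 0.0490, Fcgr3 from 0.0538 to 0.0938 and Fcer1g from 0.0407 to 0.0638. Fcgr1 went from 0.0131 to 0.0180 and Fcrls from 0.113 to 0.135, while Fcgrt was 0.0621 and 0.0574. The mean ratio was thus higher after stroke for every member but Fcgrt, and these ratios were not tested. Neutrophil markers summed to 6.72 to 9.18 CPM in non-stroked and 17.1 to 29.3 CPM in stroked WT samples and border macrophage markers to 5.07 to 8.30 and 13.9 to 35.5 CPM, and their part in these values was not tested.

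Under acute tacrolimus 1 mouse of 3 carried most of the signal. Fcgr3 had 18.5, 10.6 and 39.5 CPM, Fcgr2b 7.47, 3.58 and 19.9 CPM and Fcer1g 8.86, 6.04 and 27.7 CPM in acute replicates 1, 2 and 3. Fcgr4 counts were 17, 2 and 97. Replicate 3 lay with stroked WT samples, and replicate 2 lay within the range of the 11 non-stroked samples of all 3 genotypes for Fcgr1, Fcgr2b, Fcgr4 and Fcer1g, although above the non-stroked WT samples for the first 3. Against non-stroked WT mice all 7 members were called higher, with log2 fold changes from 0.83 to 4.96, where 6.18% of all genes were called higher. Without acute replicate 3 the count fell to 0, without non-stroked WT replicate 1 or 5 to 4, and with the cohort as a covariate to 0. With only the groups compared it was also 0, where the number of all genes called fell from 1454 to 35. The microglia and macrophage markers summed to 184 to 382 CPM in these 3 samples. The titles of acute replicates 1 and 2 differ in the animal number from the names of their deposited counts. Which mouse these 2 samples came from is therefore less certain, and all comparisons with acute samples carry this limit.

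Under delayed tacrolimus all 5 samples were high. Fcgr3 had 37.6, 42.5, 51.6, 37.5 and 62.2 CPM, Fcgr2b 22.3, 24.6, 33.9, 20.8 and 40.5 CPM and Fcgr1 8.53, 11.7, 13.2, 9.51 and 16.2 CPM. Fcgr4 counts were 66, 144, 116, 74 and 186, a ratio of 116 to the non-stroked WT samples (exact counting interval 52.9 to 317). Fcrls varied least, from 61.6 to 71.8 CPM. All 7 members were called higher than in non-stroked WT mice, with log2 fold changes from 1.74 for Fcgrt to 6.77 for Fcgr4, where 27.6% of all genes were called higher. Every delayed sample was TF and every non-stroked WT sample Imm2, so this comparison also sets TF against Imm2. All 7 stayed called with the cohort as a covariate, although the lowest estimate over the settings was 0.85 for Fcgrt and 0.95 for Fcrls. That covariate is estimated from stroked WT and acute samples, the only groups with both cohorts. It assumes that their cohort shift also holds for delayed samples, which was not tested. The microglia and macrophage markers summed to 412 to 567 CPM.

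No member was called between either drug schedule and stroked WT mice. For acute against stroked WT mice 0 of 7 members were called by edgeR and 0 by DESeq2, 4 had an unadjusted p below 0.05 (Fcgr2b, Fcgr3, Fcer1g and Fcrls), and 0% of all genes were called. The estimates lay between -0.91 for Fcgr4 and -0.38 for Fcgrt on the log2 scale, and without acute replicate 3 the count was 6, where 1437 of all genes were called. For delayed against stroked WT mice 0 of 7 were called by edgeR and 0 by DESeq2, 2 had an unadjusted p below 0.05 (Fcgr1 and Fcgrt), and 0% of all genes were called. The estimates lay between 0.36 for Fcrls and 0.91 for Fcgr4, and without stroked WT replicate 4 the count was 1. Fcgr1 was the member whose delayed samples, at 8.53 CPM or more, did not overlap with stroked WT samples, at 8.34 CPM or less (0.77, adjusted p = 0.150). How many of all genes separated between these groups was not counted. Within TF the delayed difference was -0.01 for Fcrls and 0.20 for Fcgrt.

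Delayed against acute samples gave 7 of 7 members called higher, with log2 fold changes from 0.91 for Fcgrt to 1.81 for Fcgr4 and adjusted p from 0.0102 to 0.0352, where 10.4% of all genes were called higher. Of the 7, 2 (Fcgr2b and Fcrls) had every delayed sample above every acute sample, as had 8.81% of all genes. The members called fell to 0 when these groups were fitted alone, with TF samples alone, and without acute replicate 1 or without replicate 2, and in each of these settings 0 of all genes were called by edgeR. With these groups alone the estimate for Fcgr1 was 1.21, against 1.20. Marker sums of other tissue also differed between these groups. Neuron markers summed to 5493 to 7803 CPM in acute and 4299 to 5248 CPM in delayed samples, against 7065 to 7856 CPM in non-stroked WT samples. Choroid plexus markers had a median sum of 8.67 CPM in acute and 813 CPM in delayed samples. The part of tissue content in the delayed against acute differences was not tested.

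The order of the groups by mean level was similar for the members. For each of the 7 members, delayed WT-Tacr mice had the highest mean and a non-stroked group the lowest. Most neighbours in these orders overlapped, and how many of all genes separate between such groups was not counted. The exceptions for Fcgr1 were non-stroked Rag2-/- below non-stroked NSG samples and stroked WT below stroked NSG samples. For Fcer1g they were non-stroked NSG below non-stroked WT samples and stroked WT below stroked Rag2-/- samples, and for Fcrls non-stroked NSG below non-stroked WT samples. For Fcgr3, non-stroked WT samples lay below acute WT-Tacr samples, and for Fcgr4, non-stroked Rag2-/- samples lay below stroked NSG samples.

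Genes of the signalling chain below the receptors were counted in lists. Of 26 tested genes of activating signalling, 19 were called higher, 1 lower (Plcg1) and 6 not called with stroke in WT mice, with a median log2 fold change of 1.44 where that of all genes was 0.00. The 3 with the largest change were Cybb (4.46), the catalytic subunit of the phagocyte oxidase, the Src-family kinase Fgr (4.24) and Cyba (2.62), the partner of Cybb. The same list gave 17 higher and 0 lower in Rag2-/- and 18 higher and 0 lower in NSG mice. Syk, the kinase that docks on the gamma chain, was called in WT (0.83, adjusted p = 0.0137) and NSG mice (1.39, adjusted p = 0.000710), and in Rag2-/- mice its value was 0.81 with adjusted p = 0.0752. The difference in its response between NSG and WT mice was 0.57 with adjusted p = 0.49.

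Of 15 tested genes of inhibitory signalling, 8 were called higher and 0 lower in WT mice, with a median of 0.83. The largest changes were in the inhibitory receptors Lilrb4a (6.59), Cd22 (4.99) and Pirb (4.31). The lipid phosphatase Inpp5d, which acts below Fcgr2b, changed by 1.01 in WT mice, 0.90 in Rag2-/- mice and 0.61 in NSG mice, called in each. In Rag2-/- mice 6 of the 15 were called higher and in NSG mice 9.

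Among other genes with the immunoreceptor activation motif or its adaptors, 6 of 7 tested were called higher and 0 lower in WT mice (median 2.36), and 4 of 7 in both Rag2-/- and NSG mice. Clec7a, a receptor for fungal glucans, changed by 7.0 and Tyrobp, the adaptor of Trem2, by 2.76, while Cd300lb had 0 CPM in non-stroked and a mean of 2.17 CPM in stroked WT mice. All 10 tested complement genes and complement receptors were called higher in WT (median 2.32) and NSG mice and 9 of 10 in Rag2-/- mice, led in WT mice by C3 (7.48), the integrin Itgax (6.21) and C4b (3.69). Of 9 tested immunoglobulin chains 5 were called higher in WT mice, where 15.2% of all genes were called higher. They were Igkc, Igha, Iglc1, Iglc3 and Jchain. The first 4 had too few non-stroked counts for a firm fold and passed the filter only through stroked samples. Their calls therefore add no support. Of 12 other receptors for immunoglobulin, 3 could be tested, and in WT mice the intracellular antibody receptor Trim21 (0.74) and Fcrl1 (1.75) were called higher and Fcrlb (-1.34) lower.

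The genes most like each member over the 29 samples were named by Pearson r of log2 CPM, which here mainly reflects stroke and shared libraries. For Fcgr4 they were the class II genes H2-Eb1 (r = 0.988) and H2-Aa (0.985) with Pirb (0.987). For Fcgr3 they were C1qc (0.985), C1qb (0.984) and Cd52 (0.983), and for Fcer1g Tifab (0.985), C1qc (0.982) and C1qb (0.979). For Fcgr2b they were Fcgr3 (0.982), Arhgap30 (0.981) and Ly9 (0.979), and for Fcgr1 Tmem176b (0.981), Tmem176a (0.979) and Vav1 (0.977). Fcgrt was most like Cpq (0.978), Crip1 (0.978) and Tes (0.977). Fcrls had the weakest matches, Ang (0.968), Il15 (0.960) and Ly6a (0.958), and its r with Fcgr1 was 0.662. With the group means taken out, r with the other members lay between 0.495 and 0.811 for Fcrls and was 0.899 for Fcgr3 with Fcer1g.

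Fcgr2b, Fcgr4 and Fcgr3 lie side by side on chromosome 1, at chr1:170958617-170976547, chr1:171018920-171029761 and chr1:171051174-171064935 (GRCm38, GENCODE M21), with Fcer1g at chr1:171229572-171234365. Fcgr1 lies at chr3:96282909-96293969 and Fcgrt at chr7:45092990-45103851. No other gene of the files overlaps any member. Fcgr2b and Fcgr3 share coding sequence, so a short read can come from either. The longest identical run, 129 bases, covers bases 278 to 406 of the Fcgr2b and 263 to 391 of the Fcgr3 coding sequence and is shown because counts could be split there.

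Fcgr2b and Fcgr3: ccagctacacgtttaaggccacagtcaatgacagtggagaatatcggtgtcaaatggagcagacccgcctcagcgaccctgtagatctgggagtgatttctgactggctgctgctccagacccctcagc

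Of all 50-base windows, 17.1% of the Fcgr2b and 22.1% of the Fcgr3 coding sequence occurred in the other, and of 100-base windows 4.8% and 6.3%. Every other pair of IgG receptors shared runs of 14 bases or fewer. Levels of Fcgr2b and Fcgr3 are therefore less certain than those of Fcgr1 and Fcgr4, and how shared reads were counted is not given in the sources used here.

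Promoters of the members, 250 bases before to 50 after the RefSeq start site (GRCm38.p6), were searched for GAGGAA, the core bound by the myeloid factor PU.1, on both strands. It occurred in 4 of 7 members, against 28.3% of 32851 promoters or 31.3% of 27025 genes. The match is a description of letters and not a binding site. Stretches of 60 bases are given 5′ to 3′ along the gene, with the match or its reverse complement in capitals, to show where the letters lie. They come from Fcgr1 (chr3:96293992-96294051, minus), Fcgr3 (chr1:171059395-171059454, minus), Fcgr4 (chr1:171018866-171018925, plus) and Fcrls (chr3:87263636-87263695, minus). For Fcgr3 and Fcrls the stretch and the start site used lie inside the GENCODE gene. The 3 members without a match were called higher after stroke in the same comparisons.
Fcgr1: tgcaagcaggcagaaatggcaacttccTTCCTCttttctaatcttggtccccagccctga
Fcgr3: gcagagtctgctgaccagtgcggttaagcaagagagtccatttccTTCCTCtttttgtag
Fcgr4: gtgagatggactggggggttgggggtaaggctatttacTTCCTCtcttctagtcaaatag
Fcrls: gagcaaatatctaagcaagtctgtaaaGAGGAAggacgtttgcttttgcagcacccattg
The first base of the match lay 55, 15, 22 and 144 bases before the start site. In the 3 IgG receptors it was the reverse complement, and in Fcrls it was read in the direction of the gene. No match was found in the windows of Fcgr2b, Fcer1g and Fcgrt.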

How the data were processed

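Polyadenylated RNA from 29 brain samples was sequenced with a stranded kit. The values deposited by the authors are raw counts per gene (whole numbers, not normalized). The aligner, genome build and read length are not given in the sources used here. Of 25746 Ensembl genes, 25712 were named from GENCODE M21 (GRCm38).

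From the counts, edgeR 4.0.16 in R 4.3.3 (TMM, filterByExpr by group, glmQLFit and glmQLFTest, 8 groups, 21 residual degrees of freedom) tested 17031 genes, with Benjamini-Hochberg adjustment over all and a threshold of 0.05. DESeq2 1.42.0 was an alternative, with other normalizations, filters, cohort terms, samples left out and a replicate block. Fits on the samples of the replicate block without it, and on TF samples only, were added after seeing the data. Whether same-numbered samples deviate together was checked. On simulated counts for stroke in WT mice (16751 genes), 93 of 100 genes changed by 1 log2 unit and 100 of 100 changed by 2 were recovered, with 11 false calls.

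Groups came from the sample labels. The members, lists and comparisons were chosen with earlier results of these data known. Genes were named as the members, the 3 genes most like each member by Pearson r over 29 samples, and the 3 called genes of each list whose log2 fold change was greatest in size in the comparison described. Syk, Inpp5d, Plcg1, Igkc, Ighm, Ighd, Ighg2b, Ighg2c, Jchain and the neighbouring genes Fcrl1, Cd5l, Kirrel and Apoa2 were named outside this rule, after their values were seen.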

Additional observations from a re-analysis of the deposited data

How the results depend on the processing

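No estimate that was called, as reported or under the alternative, changed sign. Of 1103 log2 fold changes of members under settings other than leaving out a sample, 990 kept their direction and call, 48 lost and 12 gained a call, and 53, none of them called, changed sign. The number of members called with stroke under acute tacrolimus was 7, but 0 with the cohort as a covariate, 0 with only Imm2 samples (where the acute group is 1 sample, assumed to vary like the others), 0 with only the groups compared (where estimates were nearly the same, 1.35 against 1.34 for Fcgr1) and 2 with Ddx3y as a covariate. All genes called fell from 1454 to 52, 42, 35 and 155 in these 4 settings. For non-stroked NSG against WT mice it was 1, but 3 with only Imm2 samples and 3 with only the groups compared. For non-stroked NSG against Rag2-/- mice it was 1, but 2 with only Imm2 samples and 2 with only the groups compared. For stroked NSG against WT mice it was 1, but 2 with the cohort as a covariate and 2 with only Imm2 samples. For stroked NSG against Rag2-/- mice it was 1, but 2 with only Imm2 samples and 0 with only the groups compared. For delayed against acute tacrolimus it was 7, but 0 with only TF samples and 0 with only the groups compared. For the NSG comparisons the numbers of all genes called in these settings are not set beside the counts. A change in the members can therefore not be told apart from a change over all genes. The causes were not tested. Without division by exon length the shares were 15.6% Fcgr1, 20.8% Fcgr2b and 63.4% Fcgr3 in non-stroked WT, 23.6%, 22.1% and 53.8% in non-stroked NSG, and 10.8%, 29.1%, 56.1% and, for Fcgr4, 4.0% in stroked WT mice.

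Leaving out 1 sample at a time, the members called ranged from 5 to 7 for stroke in Rag2-/- mice, 0 to 7 for stroke under acute tacrolimus, 1 to 2 for stroked NSG against WT and 1 to 2 against Rag2-/- mice, 0 to 6 for acute against WT, 0 to 1 for delayed against WT and 0 to 7 for delayed against acute tacrolimus. The calls over all genes also change between such fits, so these ranges are not particular to the members.

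Replicate numbers of the non-stroked groups did not pair the samples (r of same-numbered deviations from -0.258 to 0.108). With the replicate block the count was 1 for NSG against WT, 2 for NSG against Rag2-/- and 0 for Rag2-/- against WT mice, and on the same samples without the block, a fit chosen after seeing the data, it was 2, 2 and 0. Fcgr4 in non-stroked mice is limited by depth, at 5 counts or fewer per sample.

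Among log2 estimates that changed sign, with the cohort as a covariate and with only Imm2 samples in turn, stroked Rag2-/- against WT became 0.20 and 0.19 for Fcgr1, 0.31 and 0.32 for Fcgr2b, 0.08 and 0.05 for Fcgr3, 0.22 and 0.19 for Fcrls and 0.21 and 0.17 for Fcgrt, and 0.14 for Fcgr4 with the covariate. Under the same settings stroked NSG against WT became 0.36 and 0.29 for Fcgrt, the Rag2-/- minus WT response 0.05 and 0.03 for Fcgr1, 0.08 and 0.08 for Fcgr2b, 0.09 and 0.05 for Fcgr3 and 0.11 and 0.06 for Fcgrt, and 0.04 for Fcrls with the covariate, and the NSG minus WT response 0.24 and 0.19 for Fcgr1, 0.30 and 0.23 for Fcrls and 0.29 and 0.22 for Fcgrt. Delayed against WT became -0.07 for Fcrls with the covariate and -0.01 with only TF samples. With Ddx3y as a covariate, non-stroked Rag2-/- against WT became -0.07 for Fcgr1, -0.19 for Fcgr2b, -0.06 for Fcer1g, -0.29 for Fcrls and -0.24 for Fcgrt, non-stroked NSG against Rag2-/- 0.29 for Fcgr2b, 0.45 for Fcgr4 and 0.31 for Fcgrt, stroked Rag2-/- against WT 0.09 for Fcgr2b and stroked NSG against Rag2-/- -0.05 for Fcgrt. The Rag2-/- minus WT response then became 0.05 for Fcgr1, 0.27 for Fcgr2b, 0.12 for Fcgr3, 0.12 for Fcrls and 0.10 for Fcgrt, and the NSG minus Rag2-/- response -0.14 for Fcgr1, -0.47 for Fcrls and -0.36 for Fcgrt. Non-stroked Rag2-/- against WT became 0.01 for Fcgr3 with genes of at least 1 CPM, 0.06 with the replicate block and 0.07 on its samples without it, and non-stroked NSG against Rag2-/- became 0.01 for Fcgr2b with and without the block.

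With 1 sample left out, estimates that changed sign ranged from -0.14 to 0.12 for Fcgr3 in non-stroked Rag2-/- against WT, from -0.02 to 0.24 for Fcgr2b and -0.00 to 0.11 for Fcgrt in non-stroked NSG against WT, and from -0.25 to 0.01 for Fcgr2b, -0.71 to 0.13 for Fcgr4 and -0.09 to 0.02 for Fcgrt in non-stroked NSG against Rag2-/-. They ranged from -0.21 to 0.06 for Fcgr1, -0.18 to 0.08 for Fcgr2b and -0.18 to 0.02 for Fcgr3 in stroked Rag2-/- against WT, from -0.30 to 0.01 for Fcgrt in stroked NSG against WT and from -0.00 to 0.29 for Fcgrt in stroked NSG against Rag2-/-. In the responses they ranged from -0.20 to 0.06 for Fcgr3 (Rag2-/- minus WT), from -0.17 to 0.09 for Fcgr1 (NSG minus WT), and from -0.41 to 0.04 for Fcgr3, -0.70 to 0.33 for Fcgr4 and -0.02 to 0.39 for Fcer1g (NSG minus Rag2-/-).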
